A study of Rattus norvegicus with 9 samples.

Results

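The epidermal growth factor (EGF) receptor family and its ligands were followed in rat liver 24 h after 6.5 Gy of total-body irradiation (TBI). The set held 9 genes, of 13438 that could be named on the array. Members were taken as the array probes whose RefSeq transcript belongs to the receptor genes Egfr, Erbb2 and Erbb3 or the ligand genes Hbegf, Areg, Ereg, Tgfa, Egf and Btc. All 9 had a probe, 10 probes in all, since Egfr had 2 and each other gene 1.

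The study asked how Hong Shan Capsule (HSC), a Chinese herbal preparation given for radiation injury, alters the response to lethal irradiation. Male Wistar rats were either left unirradiated (control), irradiated with 6.5 Gy from a cobalt source (TBI), or given HSC by mouth on 3 days running and then irradiated with 6.5 Gy (HSC+TBI), with 3 rats per group and 1 array per rat. The HSC dose is given as 10 g/kg a day in the series text and as 30 mg/kg a day in the sample labels, and this difference was not resolved. No HSC group without irradiation and no time other than 24 h was analysed here, and the age of the rats is not given in the sources used here.

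EGF ligands are made as membrane-anchored precursors, cut from the cell surface by metalloproteases, and bind EGFR, which then pairs with itself or with ERBB2 or ERBB3. ERBB2 binds no known ligand, ERBB3 has little kinase activity of its own and binds neuregulins, and the paired receptors signal through the RAS, PI3 kinase and STAT routes. In liver, EGFR is abundant on hepatocytes and is known for its part in regeneration after tissue loss.

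The promoters of the members are shown first, to set the sequence before the start site of detected genes beside that of an undetected one. RefSeq (GRCr8) gave a start region for 7 of the 9 genes, not for Erbb3 or Ereg. The 250 bases before the start site are printed, on the gene's strand, for 2 receptors whose transcript was above background and for Areg, a ligand that was not. Capitals mark matches on either strand to short motifs. The GC box was searched as GGGCGG, the basal element named TATA box as TATAAA, the cAMP response element as TGACGTCA, the CCAAT box by its name and the AP-1 site as TGANTCA.
Egfr, chr14:95378376-95378625, plus strand: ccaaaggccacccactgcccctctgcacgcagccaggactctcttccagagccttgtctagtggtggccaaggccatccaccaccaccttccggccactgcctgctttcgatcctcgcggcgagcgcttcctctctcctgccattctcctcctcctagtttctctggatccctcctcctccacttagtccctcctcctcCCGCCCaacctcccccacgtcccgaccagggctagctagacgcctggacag
Erbb2, chr10:83907351-83907600, plus strand: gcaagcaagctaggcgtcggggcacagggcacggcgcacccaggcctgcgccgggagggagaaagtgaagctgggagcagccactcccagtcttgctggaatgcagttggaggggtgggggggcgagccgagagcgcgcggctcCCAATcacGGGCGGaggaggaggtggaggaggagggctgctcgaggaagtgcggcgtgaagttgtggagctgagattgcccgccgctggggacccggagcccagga
Areg, chr14:17265642-17265891, minus strand: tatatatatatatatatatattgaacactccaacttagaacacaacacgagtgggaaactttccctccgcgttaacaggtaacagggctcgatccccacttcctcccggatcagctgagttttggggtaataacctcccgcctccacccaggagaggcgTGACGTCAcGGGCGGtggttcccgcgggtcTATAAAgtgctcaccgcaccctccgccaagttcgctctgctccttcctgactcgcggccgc
The GC box letters stood in 5 of the 7 member promoters (Egfr, Erbb2, Areg, Tgfa and Btc), against 30.5% of the 33469 rat promoters in the table. Egfr held them 51 bases before the start, in the reverse direction. The TATA letters, found in 12.9% of all promoters, and the cAMP response element, found in 1.59%, stood in Areg alone among the 7, at 61 and 91 bases before the start. The CCAAT letters (34.0% of all promoters) were in Erbb2 and Hbegf, and the AP-1 letters (6.34%) were in none of the 7 windows. These are matches of letters only, and no binding was measured.

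Each value below is a log2 signal of an Agilent 1-colour array after quantile normalization, which gives every array the same distribution of values. A probe was tested if all 3 arrays of some group showed it well above background (25369 of 41012 probes). It was called changed at a limma adjusted p under 0.05 and a fold of at least 1.5. The number of arrays limits the precision. A limma p-value sets a group difference against the spread between rats within groups, pooled over the 3 groups and moderated by that of all tested probes. Levels of different probes are not comparable on these arrays, so each gene is compared with itself across rats.

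The tissue read as liver. The 8 hepatocyte markers, with albumin among them, summed to a signal of 1360000 to 1430000 in control, 1310000 to 1440000 in TBI and 1360000 to 1450000 in HSC+TBI rats. Before normalization the array of TBI rat 3 was brighter than the others, with a median signal of 56.6 against 24.3 to 35.7. Between 64.1% and 70.1% of spots were well above background on TBI arrays, 57.2% to 59.9% on control arrays and 59.3% to 61.0% on HSC+TBI arrays. The control arrays shared a slide, the TBI arrays shared another, and no slide held more than 1 group, so slide and group cannot be told apart. Lymphocyte markers were lower after TBI, with 3 of 4 tested called and 0 called higher. The 3 called (Cd3g, Cd79b and Cd2) were above background on all 3 arrays in the control group alone. They entered the test only through the group where they were highest, so these calls support nothing by themselves. After TBI, limma called 1 of 8 hepatocyte (higher), 1 of 6 stellate (lower) and 1 of 3 neutrophil markers (lower). It called 0 of 3 cholangiocyte, 0 of 7 macrophage, 0 of 4 endothelial and 0 of 4 platelet markers. Of all tested probes, 7.25% were called in the same comparison.

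Of the 9 genes, 6 passed the background filter (Egfr, Erbb2, Erbb3, Hbegf, Tgfa and Egf). By limma Hbegf was called higher after TBI alone, its mean at least 2.0-fold above control livers that sat at the background limit. It was tested only because it passed background in the TBI group, so the call supports nothing by itself. Limma called no receptor or other ligand, where 7.25% of all tested probes were called and 3.54% called higher. In HSC+TBI livers limma called none of the 6 against control or against TBI, where 3.23% and 0.796% of all tested probes were called. The methods' t-test, unadjusted, called Erbb3 beside Hbegf after TBI, and Erbb2 in HSC+TBI against TBI. The plot of log2 signal in each rat shows the values behind these counts.

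**Figure D1:**
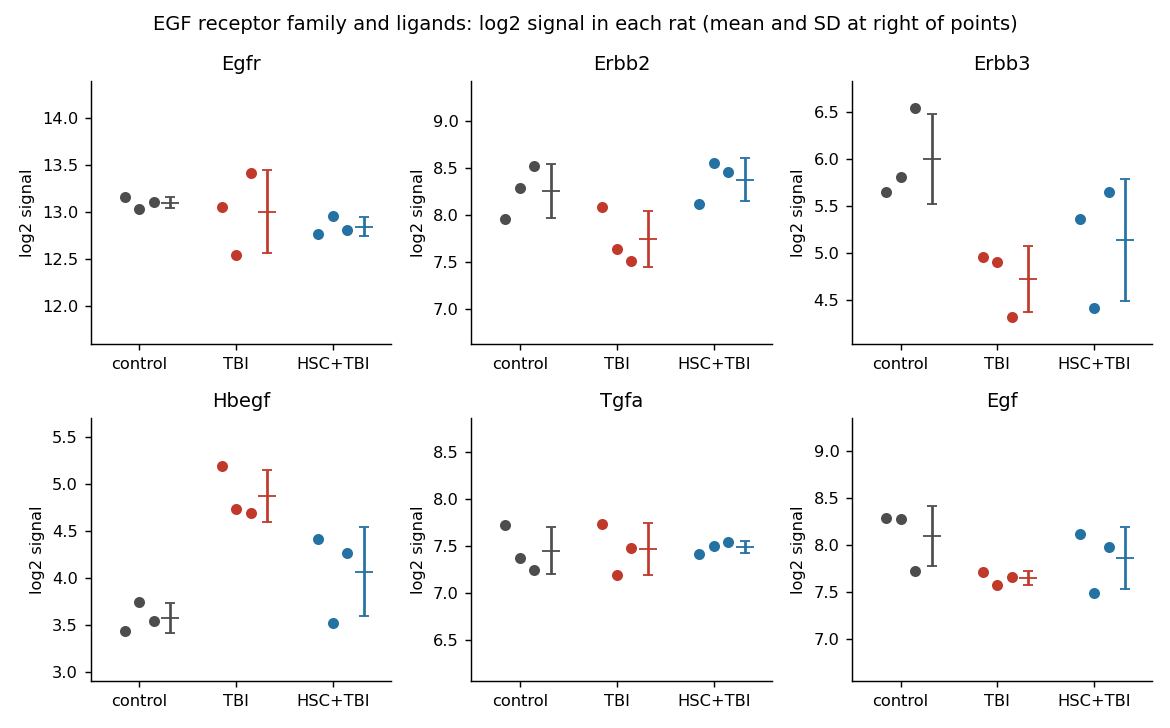
Log2 signal of the 6 members above background (vertical axis, each panel spanning the same number of log2 units) in each of 3 control, 3 TBI and 3 HSC+TBI rats. Points are rats and the bar beside them is the group mean with its SD. The 3 TBI rats lie above the 3 control rats for Hbegf and below them for Erbb3 and, by 0.01 after rounding, for Egf.

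Egfr encodes the receptor for EGF, TGF-alpha, amphiregulin and HB-EGF. Its brighter probe read 13.15, 13.03 and 13.10 in the control rats, 13.05, 12.54 and 13.41 in the TBI rats, and 12.76, 12.95 and 12.80 in the HSC+TBI rats. The TBI rats spread widely around the controls, while the HSC+TBI rats all lay below the lowest control. The group means were 13.09 ± 0.06, 13.00 ± 0.44 and 12.84 ± 0.10 (SD, n = 3 each). TBI differed from control by -0.09 (95% interval -0.55 to 0.36, limma adjusted p = 0.802) and HSC+TBI from control by -0.26 (-0.72 to 0.20, adjusted p = 0.535). HSC+TBI and TBI differed by -0.16 (-0.62 to 0.30, adjusted p = 0.728). No group difference in Egfr passed the test, and these intervals leave room for a change of up to 0.72 on the log2 scale.

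The dimmer Egfr probe read 9.5, 9.48 and 9.64 in control, 9.41, 9.10 and 9.66 in TBI, and 9.45, 9.42 and 9.30 in HSC+TBI rats. The same rats stood highest and lowest within the TBI group on both probes. Its differences from control were -0.15 for TBI (adjusted p = 0.575) and -0.15 for HSC+TBI (adjusted p = 0.636), and HSC+TBI differed from TBI by less than 0.01 (interval -0.34 to 0.34, adjusted p = 0.998).

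Erbb2 encodes the partner receptor that binds no known ligand itself. It read 7.95, 8.28 and 8.52 in control rats, 8.08, 7.63 and 7.51 in TBI rats, and 8.11, 8.55 and 8.45 in HSC+TBI rats. Irradiated rats without HSC were the lowest group, overlapping control through TBI rat 1, and all 3 HSC+TBI rats lay above all 3 TBI rats. TBI differed from control by -0.51 (SE 0.21, interval -0.98 to -0.04, unadjusted p = 0.0377 and adjusted p = 0.17 by limma). HSC+TBI differed from TBI by 0.63 (SE 0.21, interval 0.16 to 1.11, unadjusted p = 0.0148, adjusted p = 0.194) and from control by 0.12 (interval -0.35 to 0.60, adjusted p = 0.799). Neither the lower level after TBI nor the higher level with HSC passed the adjusted test.

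Erbb3 encodes the neuregulin-binding receptor that signals to PI3 kinase through its partners. Control rats read 5.65, 5.81 and 6.54, TBI rats 4.96, 4.90 and 4.32, and HSC+TBI rats 5.36, 4.41 and 5.65. Every TBI rat lay below every control rat. HSC+TBI rat 2 lay among the TBI rats, rat 1 between the TBI and control groups, and rat 3 level with the lowest control at 5.65. The difference of TBI from control was -1.27 (SE 0.36, interval -2.08 to -0.46), with an adjusted p of 0.0661 by limma, just over the threshold. The methods' t-test, unadjusted, did call this difference. It was -0.86 for HSC+TBI against control (interval -1.67 to -0.04, adjusted p = 0.231) and 0.41 for HSC+TBI against TBI (interval -0.40 to 1.23, adjusted p = 0.606). Of the 9 rats, only HSC+TBI rat 2 brought the TBI difference past the threshold when left out (-1.27, adjusted p = 0.0352), and without each of the others the adjusted p was 0.0672 to 0.191.

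Hbegf encodes heparin-binding EGF-like growth factor, a ligand of EGFR and ERBB4 that is made by macrophages, endothelium and other cells under stress. Its probe was dim, above background on 1 of 3 control, 3 of 3 TBI and 2 of 3 HSC+TBI arrays. It therefore entered the test through the TBI group alone, the group where it was highest. The processed signals before normalization were 8.4, 14.4 and 11 in control rats, 33.4, 29.6 and 46.1 in TBI rats, and 18.3, 11.2 and 14.4 in HSC+TBI rats. All TBI rats lay above all other rats on this scale. After normalization the log2 signals were 3.43, 3.74 and 3.54 in control, 5.19, 4.73 and 4.69 in TBI, and 4.41, 3.52 and 4.26 in HSC+TBI rats, with group means of 3.57 ± 0.16, 4.87 ± 0.28 and 4.07 ± 0.48 (SD, n = 3 each). HSC+TBI rats 1 and 3 stood between the control and TBI groups, and rat 2 stood among the controls.

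The measured means of TBI and control differed by 1.30 on the log2 scale (SE 0.24, interval 0.74 to 1.86, limma adjusted p = 0.0168). Set against the higher of each control array's background limit and its own value, the TBI mean of Hbegf was at least 2.0-fold higher. This bound is on the measured means and leaves out their sampling error. The measured HSC+TBI mean exceeded control by 0.50 (interval -0.06 to 1.05, adjusted p = 0.308) and lay 0.80 below TBI (difference -0.80, SE 0.24, interval -1.36 to -0.25, unadjusted p = 0.0101, adjusted p = 0.17). The groups HSC+TBI and TBI did not overlap, but the difference between them was not called. Without TBI rat 3, whose array was the brightest, the measured difference was 1.39 (adjusted p = 0.0235). Hbegf was no longer called without control rat 1 (1.23, adjusted p = 0.055) or control rat 3 (1.28, adjusted p = 0.0612). With normexp background correction, which adds an offset of 50 that compresses dim signals, the difference was 0.31 with an adjusted p of 0.0515.

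The lowest signal marked above background lay at 3.68 to 3.97 on control arrays and at 2.51 to 3.13 on TBI arrays, so the control values of Hbegf sat at the background limit. Of 2002 probes that were above background on all 3 TBI arrays and on at most 1 control array, 291 were called higher after TBI (14.5%). The summed signal of 7 macrophage markers was 88400 to 138000 in control, 92400 to 173000 in TBI and 64400 to 70000 in HSC+TBI livers. All 7 were lower in HSC+TBI than in TBI (median -0.96, 6 of 7 at an unadjusted p under 0.05, 0 called by limma). Of all tested probes, 16.3% were at an unadjusted p under 0.05 in that comparison and 0.796% were called. The 4 endothelial markers with a probe summed to 12600 to 15500, 16600 to 20400 and 15400 to 17100 in the same order of groups. That sum is weighted to its brightest probes, those of Kdr and Lyve1. After TBI 3 of the 4 were higher and 1 lower (Cdh5 at -0.27), and limma called 0. The part of these cell types in the Hbegf values was not tested. In whole liver fewer cells of a type and less RNA per cell cannot be told apart.

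**Figure D2:**
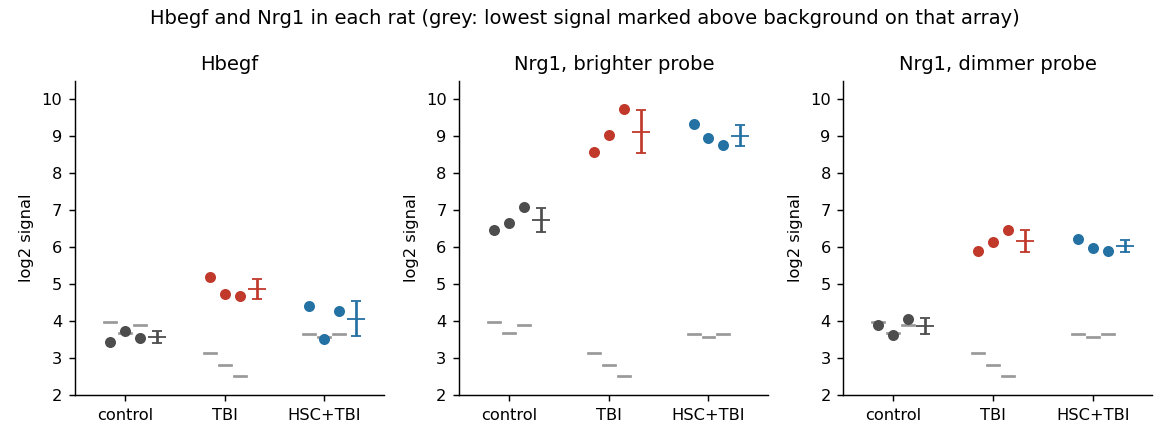
Log2 signal (vertical axis, the same in every panel) of Hbegf and of the 2 probes of neuregulin 1 (Nrg1) in each rat, by group. Points are rats, bars are group means with SD, and grey marks give the lowest signal marked above background on that rat's array. Hbegf sits near the grey marks in control rats, while Nrg1 is higher in all 6 irradiated rats than in all 3 controls on both probes.

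Tgfa encodes transforming growth factor alpha, a ligand that hepatocytes can make for their own EGFR. It read 7.73, 7.38 and 7.25 in control rats, 7.74, 7.19 and 7.48 in TBI rats, and 7.42, 7.50 and 7.55 in HSC+TBI rats. The 3 groups overlapped throughout. The differences were 0.02 for TBI against control (interval -0.38 to 0.41, adjusted p = 0.962), 0.04 for HSC+TBI against control (-0.36 to 0.43, adjusted p = 0.934) and 0.02 for HSC+TBI against TBI (-0.38 to 0.42, adjusted p = 0.968).

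Egf encodes the ligand that names the family. Control rats read 8.28, 8.27 and 7.72, TBI rats 7.71, 7.57 and 7.66, and HSC+TBI rats 8.11, 7.49 and 7.98. The TBI rats lay close together just under the lowest control, and the HSC+TBI rats spanned both groups. TBI differed from control by -0.44 (SE 0.20, interval -0.91 to 0.03, adjusted p = 0.22) and HSC+TBI by -0.23 (interval -0.69 to 0.24, adjusted p = 0.591). The gap between HSC+TBI and TBI was 0.21, with an adjusted p of 0.644.

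Areg (amphiregulin), Ereg (epiregulin) and Btc (betacellulin) were not well above background on any of the 9 arrays and were not tested. Their log2 signals ran from 1.26 to 1.38 for Areg, 1.34 to 1.57 for Ereg and 1.29 to 2.52 for Btc. For these 3 ligands the arrays give only a bound, in irradiated and unirradiated liver alike.

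Counted together, 1 of the 6 tested genes was called after TBI alone (Hbegf, higher), where 7.25% of all tested probes were called and 3.54% were called higher. Another 2, Erbb2 and Erbb3, were at an unadjusted p under 0.05, which held for 25.5% of all probes. Since Hbegf was tested only through its TBI level, this count supports nothing by itself, and with probes required to pass background on all 9 arrays 0 of the 5 left were called. Groups did not overlap for 3 of the 6 (Hbegf higher, Erbb3 and, by 0.01, Egf lower), where 28.8% of all probes did not overlap. After TBI the methods' t-test, unadjusted, called 2 (Erbb3 and Hbegf), with no share over all probes computed for that test in any comparison. In HSC+TBI against control, limma called 0 of 6 with 3.23% of all probes called, 1 (Erbb3) was at an unadjusted p under 0.05 beside 19.6% of all probes, and the methods' t-test called 0. Egfr lay wholly below control there, and so did Erbb3, though only beyond the 2 decimals printed (5.65 in both groups), where 31.7% of all probes did not overlap. In HSC+TBI against TBI, limma called 0 of 6 with 0.796% of all probes called, while 2 (Erbb2 and Hbegf) were at an unadjusted p under 0.05 beside 16.3% of all probes. The methods' t-test, unadjusted, called 1 there (Erbb2). Those 2 genes were also the ones that did not overlap, where 21.4% of all probes did not. The comparisons share groups, so their counts are not independent of each other.

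**Figure D3:**
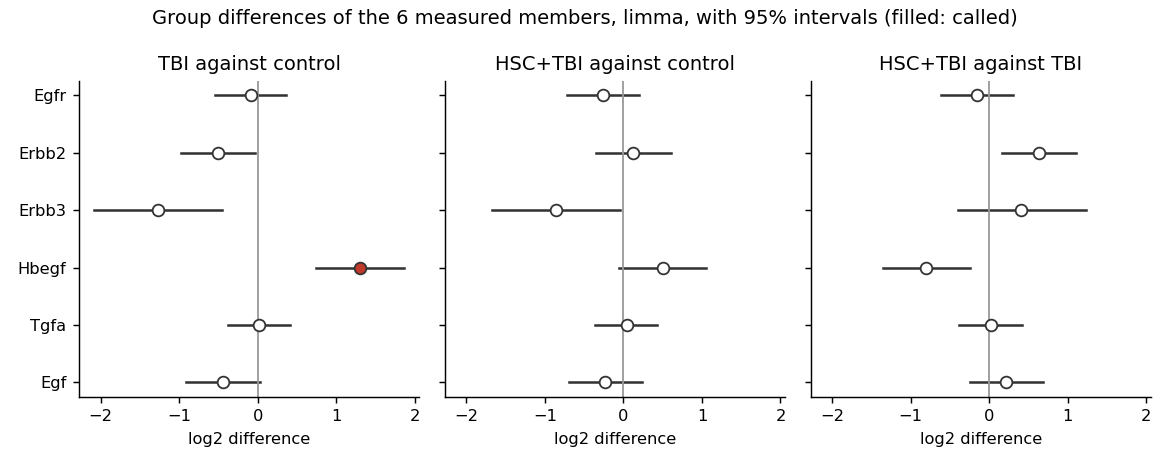
Log2 differences between groups (horizontal axis) for the 6 members above background, with 95% intervals from the limma fit, in each of 3 comparisons. Filled points were called. Hbegf after TBI, at a measured difference of 1.30 from a control group at the background limit, is the only filled point, and the intervals of Erbb2 and Erbb3 in the same panel lie below 0.

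The other genes of EGF receptor signalling were taken from a list of 55, chosen with earlier results known, of which 43 had a probe and 39 were tested. After TBI limma called 4 of the 39, all higher: Nrg1, Src, Jun and Myc. That is 10.3% of the list, against 7.25% of all probes called in either direction and 3.54% called higher. An unadjusted p under 0.05 held for 12 of 39, against 25.5% of all probes, and the median difference was 0.11 against -0.01. In HSC+TBI against control limma called Nrg1 alone (2.56% of the list against 3.23% of all probes). There 8 of 39 were at an unadjusted p under 0.05, beside 19.6% of all probes, and the median was 0.05, as for all probes. The methods' t-test, unadjusted, for which no share over all probes was computed, also called Rhbdf2 there. In HSC+TBI against TBI limma called 0 of 39, beside 0.796% of all probes. An unadjusted p under 0.05 held for 4, beside 16.3% of all probes, and the methods' t-test, unadjusted, called 1 (Rhbdf2).

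Among the other ligands, Nrg1 rose in both irradiated groups. Nrg1 encodes neuregulin 1, a ligand of ERBB3 and ERBB4. Its brighter probe read 6.47, 6.66 and 7.08 in control rats, 8.59, 9.03 and 9.75 in TBI rats, and 9.34, 8.95 and 8.77 in HSC+TBI rats. Both irradiated groups lay wholly above control, and they overlapped each other. The difference from control was 2.39 for TBI (SE 0.30, interval 1.70 to 3.07, 5.23-fold, limma adjusted p = 0.00375) and 2.28 for HSC+TBI (SE 0.30, interval 1.60 to 2.97, 4.87-fold, adjusted p = 0.00626). HSC+TBI differed from TBI by -0.10 (interval -0.79 to 0.58, adjusted p = 0.895), so no difference between the irradiated groups was detected. With any 1 rat left out the rise was still called in both groups, at 2.07 to 2.65 for TBI and 2.12 to 2.46 for HSC+TBI.

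The dimmer Nrg1 probe gave 3.90, 3.63 and 4.06 in control, 5.90, 6.13 and 6.47 in TBI, and 6.22, 5.98 and 5.90 in HSC+TBI rats. It was above background on 1 of 3 control arrays and on every irradiated array. This probe therefore entered the test only through the irradiated groups, where it was higher, so its calls support nothing by themselves. Against the background limit of the control arrays its mean was at least 4.81-fold higher in TBI (limma adjusted p = 0.000416). In HSC+TBI its mean was at least 4.38-fold higher (limma adjusted p = 0.000739). These bounds also leave out sampling error. Nrg2, the other neuregulin tested, differed from control by -0.08 after TBI (adjusted p = 0.751). Erbb4, the remaining receptor of the family, was not above background on any array.

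Limma called none of the 4 tested genes of ligand processing in any comparison. Of all tested probes it called 7.25% after TBI, and 3.23% and 0.796% in HSC+TBI against control and against TBI. The methods' t-test, unadjusted, called Rhbdf1 after TBI and Rhbdf2 in both HSC+TBI comparisons. Rhbdf1, which encodes the inactive rhomboid iRhom1, a partner of the protease ADAM17 that sheds EGF ligands, had the largest difference of the 4 tested. It read 6.40, 6.45 and 7.64 in control, 4.01, 4.29 and 5.87 in TBI, and 6.26, 4.62 and 5.98 in HSC+TBI rats. Both irradiated groups lay below control, and they overlapped each other. The difference after TBI was -2.11 (SE 0.60, interval -3.48 to -0.74, adjusted p = 0.0684). It was -1.21 for HSC+TBI against control (adjusted p = 0.311) and 0.90 for HSC+TBI against TBI (adjusted p = 0.502).

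Limma and the methods' t-test called none of 6 adaptor and endocytosis genes and none of 6 feedback inhibitors in any comparison. Beside these, limma called 7.25% of all tested probes after TBI, and 3.23% and 0.796% in HSC+TBI against control and against TBI. Cblb, a ubiquitin ligase that acts on activated receptors, read 9.31, 9.61 and 9.40 in control, 8.91, 8.90 and 9.03 in TBI, and 8.87, 8.82 and 9.19 in HSC+TBI rats. Every irradiated rat lay below every control. The difference from control was -0.50 for TBI (SE 0.14, adjusted p = 0.0648) and -0.48 for HSC+TBI (adjusted p = 0.102). Rnf41, whose product Nrdp1 marks ERBB3 for breakdown, differed by -0.61 after TBI (adjusted p = 0.456), with control rat 3 at 7.44 and every other rat at 6.04 or below.

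Of the 15 kinases and signal carriers tested, limma called Src alone, in TBI against control. That is 6.67% of them, near the 7.25% of all tested probes called. Src encodes the tyrosine kinase that EGFR both activates and is phosphorylated by. It read 4.35, 4.46 and 4.64 in control, 4.82, 5.39 and 5.23 in TBI, and 4.76, 4.56 and 4.78 in HSC+TBI rats. All TBI rats lay above the other groups. The difference after TBI was 0.66 (SE 0.17, 1.59-fold, adjusted p = 0.0449), against 0.21 (adjusted p = 0.525) for HSC+TBI against control. Against TBI, the HSC+TBI value was -0.45 (adjusted p = 0.231).

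Among 6 target genes, Jun and Myc, transcription factor genes that growth factors and many other stimuli induce, rose after TBI. Limma called these 2 of 6, where 7.25% of all tested probes were called and 3.54% called higher. Jun read 9.88, 12.13 and 11.25 in control, 12.59, 13.83 and 13.66 in TBI, and 13.11, 12.21 and 12.45 in HSC+TBI rats. Myc read 8.53, 9.94 and 8.97 in control, 10.34, 10.79 and 11.63 in TBI, and 10.62, 9.90 and 10.24 in HSC+TBI rats. Control rats spread widely for both genes, with control rat 1 the lowest. Jun was 2.28 higher after TBI (SE 0.56, 4.84-fold, adjusted p = 0.0435) and Myc 1.77 higher (SE 0.42, 3.42-fold, adjusted p = 0.0383). In HSC+TBI the differences from control were 1.51 (adjusted p = 0.186) and 1.11 (adjusted p = 0.195), and those from TBI were -0.77 (adjusted p = 0.54) and -0.67 (adjusted p = 0.478). Src was still called with TBI rat 1 left out, and Jun and Myc with control rat 2 or TBI rat 1 left out. Leaving out any other rat lost them, at adjusted p of up to 0.122 for Src, 0.117 for Jun and 0.121 for Myc. All 3 were also lost when every probe was tested without the background filter, and when only the 2 groups compared entered the fit.

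**Figure D4:**
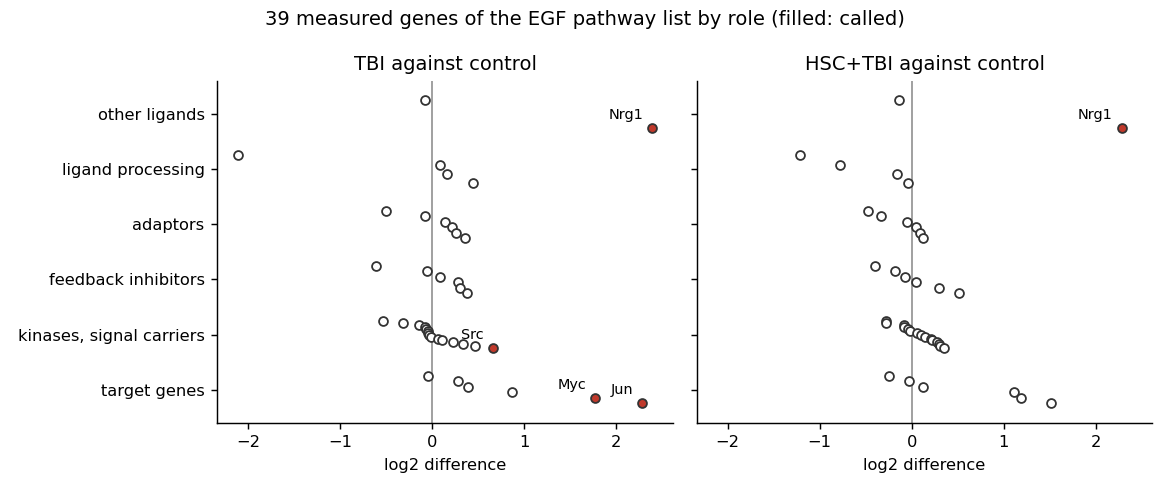
Log2 differences from control (horizontal axis) of the 39 tested genes of the EGF pathway list in TBI and in HSC+TBI livers, in rows by role. Each point is a gene, filled where it was called. Nrg1 is filled in both panels, at 2.39 and 2.28, and Src, Jun and Myc only in the TBI panel.

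The named genes whose profile over the 9 arrays lay closest to that of Egfr, by the root mean square difference of centred log2 signals, were Stard9 (0.07), Pgap6 (0.08) and Stk3 (0.10), where Egfr itself ranged over 0.88. For Hbegf, which ranged over 1.75, they were Tspan11 (0.22), Fosl2 (0.25) and Mybphl (0.25). These are descriptions over 9 arrays that share slides and signal levels by group.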

How the data were processed

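Total RNA of 9 rat livers was labelled with Cy3 and hybridized to Agilent whole-genome rat arrays. The authors deposited scanner files from Agilent Feature Extraction 10.7.3.1, whose processed signals are intensity values already background-subtracted, and a table of log2 values normalized by the authors by quantiles in GeneSpring.

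Processed signals were set to at least 1, logged (log2) and quantile normalized, with outlier spots left out (84 to 115 of 43379 an array), and spots were averaged per probe. Probes were named through their RefSeq accessions (16968 of 41012). Above background meant that over 0.5 of a probe's spots on an array carried the scanner's flag. Groups were compared with limma 3.58.1 in R 4.3.3 (3 group means, empirical Bayes, Benjamini-Hochberg over 25369 probes), after a test on simulated data. Intervals are 95%. The brightest probe of a gene was counted.

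All members were named, with each called pathway gene, the largest change in roles without calls, and the 3 most similar profiles of Egfr and of called members. Nrg2, Erbb4, Rhbdf2 and Fos were added after their values were seen. Members, lists and markers were chosen with earlier results of these data known. Alternatives covered scaling, background correction, the authors' values, filters, test, threshold, blocks, probe choice and each rat left out.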

Additional observations from a re-analysis of the deposited data

How the results depend on the processing

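Of 410 member differences recomputed under alternatives, 383 kept direction and side of the threshold, 4 lost a call, 7 gained a call and 16 turned direction. The 4 lost calls were all of Hbegf after TBI, whose adjusted p ran from 0.00684 to 0.0612 with a rat left out and from 0.000229 to 0.0836 under the other settings. Dim signal limits Hbegf, Areg, Ereg and Btc. The cause of the other changes was not tested.

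Members called after TBI (1) numbered 0 with normexp, 0 when probes had to pass background on all 9 arrays (Hbegf left out), 2 and 0 with the methods' t-test before and after adjustment, 2 with slide as a random block (Erbb3 added, adjusted p = 0.0015), and 0 to 2 with a rat left out. Without control rat 1 or control rat 3 there were 0, and without HSC+TBI rat 2 there were 2. For HSC+TBI against control there were 0 throughout. For HSC+TBI against TBI (0) there was 1 with the unadjusted t-test, 2 with the slide block (Erbb2 at 0.61, adjusted p = 0.0218, and Hbegf at -0.74, adjusted p = 0.0279), 1 without normalization between arrays (Hbegf at -1.32, adjusted p = 0.0448) and 0 with any rat left out. The last setting was chosen after seeing the data. The correlation within slides was estimated at -0.327, and the slide block raised the calls over all probes from 1839, 820 and 202 to 4528, 2573 and 2256. No slide held more than 1 group and only the HSC+TBI arrays lay on more than 1 slide. This block therefore cannot separate slide from group, and no conclusion is drawn from the calls it adds, here or among the pathway genes below.

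Pathway genes called after TBI (4) numbered 1 with no filter, 1 with the 2 groups alone, 0 with the adjusted t-test, 2 without normalization and 1 to 5 with a rat left out. For HSC+TBI against control (1) they numbered 2 and 0 with the t-test before and after adjustment, 4 with the slide block and 1 with any rat left out. For HSC+TBI against TBI (0) they numbered 1 with the unadjusted t-test, 1 with the slide block and 0 to 1 with a rat left out (Rhbdf2 without TBI rat 1).

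Differences that turned direction were uncalled. With normexp these were Tgfa at -0.03 (TBI against control) and -0.02 (HSC+TBI against control). Without normalization they were Egfr at 0.25 after TBI, Tgfa at -0.06 against control and -0.36 against TBI in HSC+TBI, and Erbb3 at -0.09 and Egf at -0.16 in HSC+TBI against TBI. With a rat left out, Tgfa ran from -0.12 to 0.16 after TBI, from -0.07 to 0.18 in HSC+TBI against control and from -0.12 to 0.15 in HSC+TBI against TBI. Egfr ran from -0.30 to 0.14 after TBI and from -0.39 to 0.04 in HSC+TBI against TBI, and Erbb2 from -0.03 to 0.26 in HSC+TBI against control. Scaling by the 75th percentile moved the share of calls that were higher in HSC+TBI against TBI from 29.2% to 13.7%, and in the other comparisons by less than 10 points.

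The labels number the replicates without saying that a number pairs rats. Deviations of same-numbered rats correlated at 0.191, 0.117 and 0.098 between TBI and control and at -0.144 to 0.015 in the other comparisons. With the replicate number as a block, 1, 0 and 0 members were called in the 3 comparisons, as without it, and 2 pathway genes in place of 4 after TBI (Nrg1 and Rhbdf1).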

Other observations

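Rhbdf2, which encodes iRhom2, the partner of ADAM17 in blood and immune cells, read 8.42, 9.18 and 8.93 in control, 8.54, 9.25 and 9.02 in TBI, and 8.10, 8.17 and 7.91 in HSC+TBI livers. All HSC+TBI rats lay below all other rats. The difference from TBI was -0.87 (interval -1.41 to -0.34, unadjusted p = 0.00501, limma adjusted p = 0.133). The dimmer probe was not above background on any HSC+TBI array. Markers of several blood and immune cells were also lower in HSC+TBI than in TBI livers. These were 7 of 7 macrophage (6 at an unadjusted p under 0.05), 3 of 3 neutrophil (all 3) and 4 of 4 platelet markers (2). Of all tested probes, 16.3% were at an unadjusted p under 0.05. Lymphocyte markers were lower in 3 of 4, with Ptprc at -1.08 on its brightest probe. On the brightest probes limma called 0 of these macrophage, neutrophil and platelet markers, where 0.796% of all probes were called. It called 1 lymphocyte marker, Cd2, which was higher but above background on 0 of 3 TBI and 1 of 3 HSC+TBI arrays. Cd2 was tested only through the control group, so no conclusion is drawn from this call. The dimmer Ptprc probes were at -1.3 (limma adjusted p = 0.133) and -1.75 (limma adjusted p = 0.0149, called lower). The part of these cells in the Rhbdf2 values was not tested.

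Fos, a further early response gene, read 5.16, 8.70 and 8.51 in control rats, 8.35, 8.71 and 7.93 in TBI rats and 8.63, 8.28 and 9.04 in HSC+TBI rats. Control rat 1 lay far below every other rat, as it was the lowest rat for Jun and Myc, and the difference after TBI was 0.87 (interval -0.99 to 2.74, adjusted p = 0.542). These 2 genes were chosen after their values were seen.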
